A study of Mus musculus with 6 samples.

Results

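The genes described here are 9 long noncoding RNAs that act in the nucleus or lie in imprinted regions, namely Malat1, Neat1, Meg3, Rian, Mirg, Miat, Kcnq1ot1, Pvt1 and Rmst. They were taken by symbol from a table of 55416 mouse genes, each matched 1 row, and 6 passed the filter on low counts. Malat1 (ENSMUSG00000092341) and Neat1 (ENSMUSG00000092274) lie on chromosome 19, Meg3 (ENSMUSG00000021268), Rian (ENSMUSG00000097451) and Mirg (ENSMUSG00000097391) on chromosome 12, and Miat (ENSMUSG00000097767) on chromosome 5. Kcnq1ot1 (ENSMUSG00000101609) lies on chromosome 7, Pvt1 (ENSMUSG00000097039) on chromosome 15 and Rmst (ENSMUSG00000112117) on chromosome 10. The cells were MB21, which derive from a mouse medulloblastoma, carry mutant Ptch in both groups and were grown unattached in serum-free medium with B27. Cells received DS38 (DS-1-38, a derivative of benzarone) at 10 uM for 1 day (3 libraries), or the DMSO vehicle for 1 day (3 libraries). The series' design text gives 5 days, but the titles and the treatment protocol give 1 day, which is used here. All libraries come from this 1 line, and the labels leave unsaid whether its replicates were cultured apart; p-values therefore describe how far these samples scatter, which may be technical scatter alone.

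Long noncoding RNAs are transcribed like messenger RNAs but act without being translated. Malat1 and Neat1 lie next to each other in the genome; Malat1 RNA collects at nuclear speckles, where splicing factors are stored, and Neat1 RNA is the scaffold of paraspeckles. Miat, also called Gomafu, forms nuclear foci in neurons, Pvt1 lies beside Myc, and Rmst is known in neural precursors as a partner of Sox2. Kcnq1ot1 is transcribed from the paternal chromosome, antisense to Kcnq1, and silences neighbouring genes in cis. Meg3, Rian and Mirg form a maternally expressed chain of transcripts in the Dlk1-Dio3 imprinted region and host small nucleolar RNAs and microRNAs.

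After 1 day of DS38, Kcnq1ot1 fell by 44.8% and Miat fell by 21.7%, while Neat1 rose by 22.8% relative to DMSO. Malat1, Pvt1 and Mirg did not pass the test, and Meg3, Rian and Rmst were at or near 0 counts. Thus 1 of the 6 tested RNAs rose and 2 fell, by edgeR's quasi-likelihood test at an adjusted p under 0.05 (Benjamini-Hochberg, over the 17679 genes that passed the filter). Over all genes the same test called 24.5%, of which 12.9% were higher and 11.7% lower in DS38. Among long noncoding genes it called 10.1%. The median log2 fold change of the 6 RNAs was -0.19, against 0.004 for all tested genes. The set and the gene lists were chosen with earlier results of these data known, so these comparisons only describe. The fall of Kcnq1ot1 passed under every alternative tried, but its log2 fold change was -0.46 with a correction for gene length, against -0.86 without it. The calls of Miat and Neat1 were lost under some alternatives, as given beside each.

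Totals were 60434089 to 84044428 counts in DS38 libraries and 38840296 to 50014681 in DMSO libraries, so every DS38 library was the deeper one. DS38 libraries resembled each other more than DMSO libraries did. The chi-square statistic per degree of freedom was 2.79 to 3.37 between DS38 libraries and 7.82 to 8.76 between DMSO libraries. Against DS38 libraries it was 9.77 to 11.7 for DMSO replicate 3, the library with the fewest counts. For DMSO replicates 1 and 2 it was 21.8 to 26. All 12 granule cell progenitor markers were tested, of which 3 rose and 6 fell, with a median log2 fold change of -0.09. That is 75% called, against 24.5% of all genes and 29.4% of protein-coding genes. Atoh1, the transcription factor that defines this lineage, was among the 3 that rose and so went against the 6 that fell. It was at 411 ± 5.49 CPM in DS38 and 327 ± 8.37 CPM in DMSO (CPM, counts scaled to library size, with SD, n = 3 each). The 6 microglial markers together were at 0.0815 to 0.117 CPM in DS38 and 0.0416 to 0.388 CPM in DMSO, with C1qa and Tyrobp at 0.

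Promoters of 6 of the 9 genes were found in RefSeq's table for GRCm38.p6, each as 250 bases before the transcript start and 50 after it. Those of Kcnq1ot1 and Miat are shown because both RNAs fell, that of Malat1 because it was the most abundant, and that of Meg3 because its RNA was not counted at all. Capitals mark CCAAT in Kcnq1ot1, a motif of the factor NF-Y, and TGACGTCA in Meg3, the cAMP response element. The windows are chr7:143296498-143296797 (minus strand) for Kcnq1ot1, chr5:112228899-112229198 (minus strand) for Miat, chr19:5802623-5802922 (minus strand) for Malat1 and chr12:109540746-109541045 (plus strand) for Meg3, each written 5′ to 3′ along the gene.
Kcnq1ot1: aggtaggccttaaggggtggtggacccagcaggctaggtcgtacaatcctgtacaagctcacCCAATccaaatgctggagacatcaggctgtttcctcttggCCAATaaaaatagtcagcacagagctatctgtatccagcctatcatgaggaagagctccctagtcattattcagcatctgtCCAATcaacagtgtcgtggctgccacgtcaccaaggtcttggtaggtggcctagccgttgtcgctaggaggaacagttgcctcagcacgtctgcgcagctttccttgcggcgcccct
Miat: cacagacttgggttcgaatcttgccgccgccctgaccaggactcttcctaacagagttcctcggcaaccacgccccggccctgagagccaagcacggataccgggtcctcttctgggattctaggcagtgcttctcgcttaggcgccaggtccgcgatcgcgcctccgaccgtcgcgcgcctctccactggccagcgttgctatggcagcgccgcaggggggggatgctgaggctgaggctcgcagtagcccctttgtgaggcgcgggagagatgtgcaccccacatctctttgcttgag
Malat1: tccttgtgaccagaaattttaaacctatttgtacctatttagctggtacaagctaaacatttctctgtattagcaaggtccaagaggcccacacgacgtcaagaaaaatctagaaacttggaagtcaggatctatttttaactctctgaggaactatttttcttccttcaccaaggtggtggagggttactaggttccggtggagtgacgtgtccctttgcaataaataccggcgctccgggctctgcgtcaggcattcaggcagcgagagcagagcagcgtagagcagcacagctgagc
Meg3: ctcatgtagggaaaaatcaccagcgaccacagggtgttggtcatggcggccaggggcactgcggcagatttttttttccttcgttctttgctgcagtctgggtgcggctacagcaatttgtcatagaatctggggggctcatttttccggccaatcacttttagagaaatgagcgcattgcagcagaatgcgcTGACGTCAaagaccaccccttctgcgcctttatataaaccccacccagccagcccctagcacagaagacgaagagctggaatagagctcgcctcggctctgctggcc

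Both strands of these windows were searched. CCAAT occurs 3 times in the Kcnq1ot1 window, starting 188, 148 and 67 bases before the transcript start, and it is in 37.4% of the 32851 promoter windows of this length. It also occurs in the Meg3 window, where it is not capitalised, 100 bases before the start, and it is absent from the Miat and Malat1 windows. The Meg3 window holds TGACGTCA, which 1.79% of windows hold, 57 bases before the start. RefSeq's table also holds a further Meg3 window, starting at chr12:109545148, which is not shown and has neither TGACGTCA nor CCAAT. The GLI motif GACCACCCA, in 0.253% of windows, and the ATF4 motif TGATGCAA, in 0.895%, are in none of the 4 windows shown. These are matches of letters, not measured binding.

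Kcnq1ot1 was lower in every DS38 library than in any DMSO library. It had 52.6, 53.5 and 63.7 CPM in DS38 replicates 1 to 3, against 107, 118 and 81.9 CPM in DMSO replicates 1 to 3. These rest on 3283 to 5428 counts per DS38 library and 3168 to 5688 per DMSO library. The groups did not overlap, as was so for 38.6% of all tested genes, and the lowest DMSO library was replicate 3. The log2 fold change was -0.86 ± 0.083 (SE; 95% interval -1.03 to -0.68; edgeR adjusted p = 1.731e-07). It was -0.99 without DMSO replicate 3, the deepest fall among the fits that left out 1 library, and -0.74 without DMSO replicate 2, the shallowest.

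**Figure D1:**
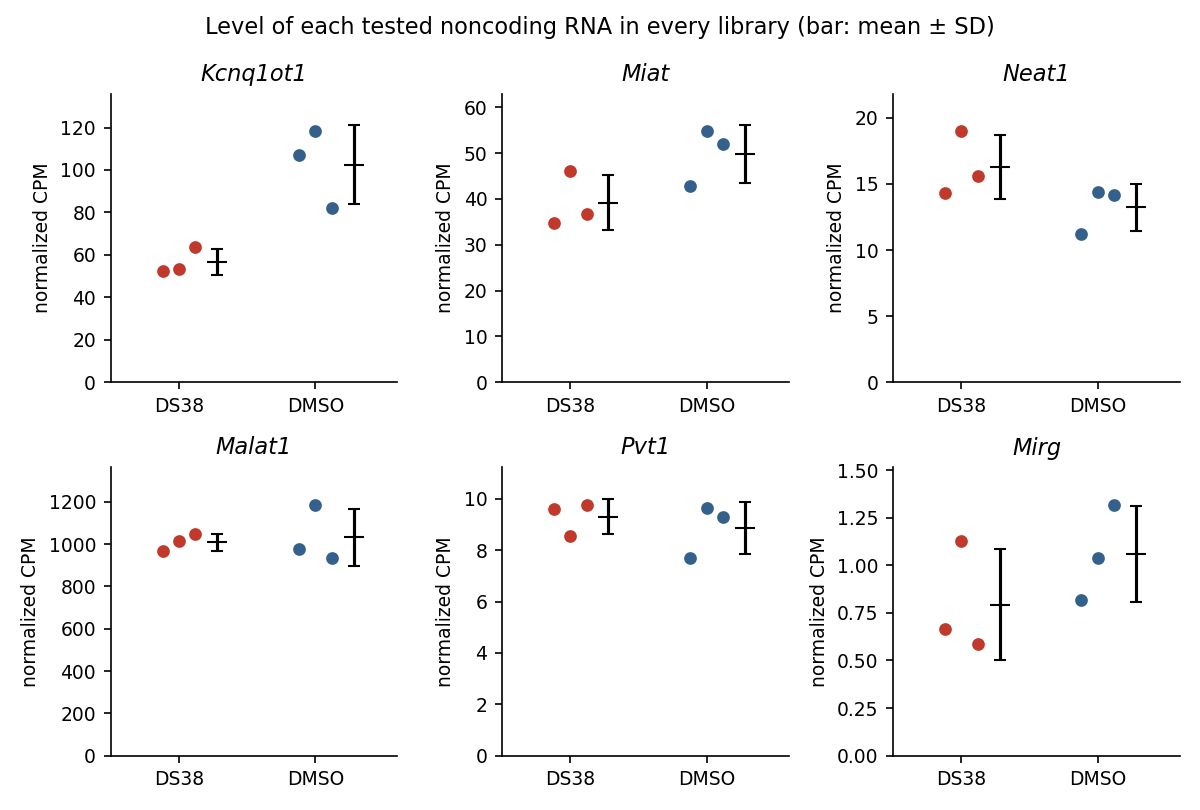
Normalized CPM (vertical axes, from 0) of the 6 tested noncoding RNAs in each DS38 and DMSO library; points are libraries and bars the mean ± SD of 3. Kcnq1ot1 is at 52.6 to 63.7 CPM in DS38 and 81.9 to 118 CPM in DMSO, with no overlap, while the groups overlap for the other 5.

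Among 1635 tested long noncoding genes of the GENCODE M21 annotation, Kcnq1ot1 ranked 48th by the size of its fall, and 15th by level. Of that class 3.98% were higher and 6.12% lower in DS38. M21 gives Kcnq1ot1 as 1 exon. With the strand setting not given, its count cannot show whether all of its reads come from that transcript. Among single-exon long noncoding genes, of which Kcnq1ot1 is a member, 5 rose and 21 fell of 246, and among spliced ones 60 rose and 79 fell of 1389.

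Gene length moved with the result. The deposited table gives Kcnq1ot1 93092 bases, and of the 302 tested genes over 16 kb, 5.30% rose and 53.0% fell, against 16.5% and 11.6% of those of 4 to 8 kb. With each library corrected by a smooth curve on gene length, the log2 fold change of Kcnq1ot1 was -0.46 ± 0.058 (edgeR adjusted p = 3.198e-06; over its 17 alternatives the adjusted p was at most 0.03245, with robust dispersion). Only 5 tested genes exceed 50 kb, Kcnq1ot1 among them, so the curve is thinly filled at its length. Neat1, with 20771 bases the other one of the 6 tested RNAs that exceeds 16 kb, rose, as did 5.30% of its length class, and its log2 fold change was 0.42 ± 0.099 with the same correction.

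**Figure D2:**
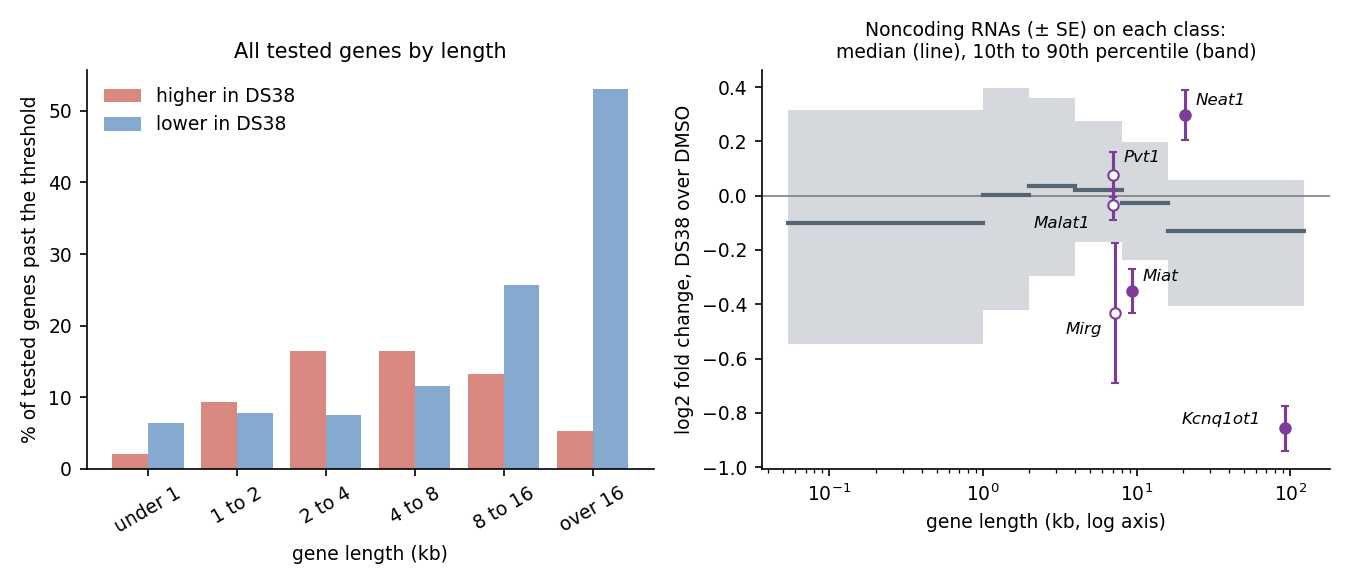
Left, percent of tested genes (vertical axis) that were higher or lower in DS38, by gene length in kb. Right, log2 fold change of the 6 noncoding RNAs (points ± SE; filled where adjusted p was under 0.05) against gene length on a log axis, over the median (lines) and the 10th to 90th percentiles (bands) of all tested genes in each length class; Kcnq1ot1 lies below the band of genes over 16 kb and Neat1 above it.

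By the distance between level profiles over the 6 libraries, each centred on its own mean, the genes nearest to Kcnq1ot1 were Syne2, Sema3e and Zbtb20. Syne2 encodes a giant protein of the nuclear envelope and differed from Kcnq1ot1 by a root mean square of 0.0948 on the log2 scale, where the spread of Kcnq1ot1 itself was 0.459. Its level was 156 CPM in DS38 and 259 CPM in DMSO, with a log2 fold change of -0.73 ± 0.071 (SE). Sema3e encodes a secreted axon guidance factor and differed by 0.116, and Zbtb20, a transcription factor gene, by 0.122. The deposited gene lengths of Syne2 and Zbtb20 are 26726 and 30730 bases.

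Several genes near Kcnq1ot1, Kcnq1 and Cdkn1c among them, were hardly counted. Kcnq1, the potassium channel gene on the opposite strand, had 1, 3 and 7 counts in DS38 replicates 1 to 3, against 1, 5 and 2 in DMSO replicates 1 to 3. Cdkn1c, an inhibitor of cyclin-dependent kinases, had 0, 0 and 2 counts in DS38 and 1, 2 and 3 in DMSO. Phlda2, Ascl2 and Slc22a18 had 12, 8 and 2 counts in all libraries together. The strand setting of the counting is not given in the sources used here, so reads of overlapping genes on opposite strands cannot be told apart with certainty; the counts assigned to Kcnq1 itself were 19 in all.

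Of 18 listed genes of the Kcnq1 and neighbouring H19 domains that had a row, 8 were tested, and by edgeR 1 rose and 0 fell, which is 12.5% against 24.5% of all genes. At an unadjusted p under 0.05, 2 were higher and 1 lower. DESeq2 and limma-voom also called 0 lower. Osbpl5, a lipid transfer protein gene, had 50.6, 49.7 and 47.9 CPM in DS38, against 44.1, 43.3 and 44.3 CPM in DMSO, without overlap (log2 fold change 0.17 ± 0.037; edgeR adjusted p = 0.001718). Nap1l4, a histone chaperone gene and the most abundant of them, had a log2 fold change of -0.01 ± 0.030, and Cd81, a tetraspanin gene, of 0.07 ± 0.031; neither passed. The number higher was 2 with library size alone and without DMSO replicate 3, and the number lower was 1 without DMSO replicate 1.

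Other unspliced or antisense RNAs of imprinted regions were set beside Kcnq1ot1. Airn, which is antisense to Igf2r and silences genes in cis in the same manner, had 4.48, 4.78 and 4.72 CPM in DS38, against 6.06, 7.72 and 5.46 CPM in DMSO. All DS38 libraries were below all DMSO libraries, and Airn fell by 0.47 ± 0.11 on the log2 scale (edgeR adjusted p = 0.002564). Its partner Igf2r, the receptor that clears IGF2, had a log2 fold change of -0.07 ± 0.033 and did not pass. Nespas, antisense at the Gnas locus, was at 1.74 ± 0.127 CPM in DS38 and 2.07 ± 0.207 CPM in DMSO and did not pass (edgeR adjusted p = 0.2464). Snhg14 and Peg13, noncoding RNAs of other imprinted regions, had more counts than Airn and Nespas, and their groups overlapped. Their log2 fold changes of -0.06 ± 0.086 and -0.01 ± 0.058 did not pass (edgeR adjusted p = 0.6533 and 0.9076).

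Of 31 tested imprinted genes outside these domains, 2 rose and 7 fell, which is 29.0% of them against 24.5% of all genes, with a median log2 fold change of -0.03 against 0.004. Peg10, a retrotransposon-derived gene, fell by 0.40 ± 0.036 and Peg3, a zinc finger gene, by 0.34 ± 0.041 on the log2 scale (SE). Its neighbour Zim1, also a zinc finger gene, fell by 0.45 ± 0.063. The other falls were Airn, the ubiquitin ligase gene Ube3a (-0.19 ± 0.035), the zinc finger gene Plagl1 (-0.21 ± 0.043) and Inpp5f (-0.13 ± 0.030). Copg2, a coatomer subunit gene, and Zfp64 rose by 0.26 ± 0.032 and 0.17 ± 0.054. The number that rose was 5 with library size alone; it was 1 with DESeq2, after thinning, and without any 1 library other than DMSO replicate 3.

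**Figure D3:**
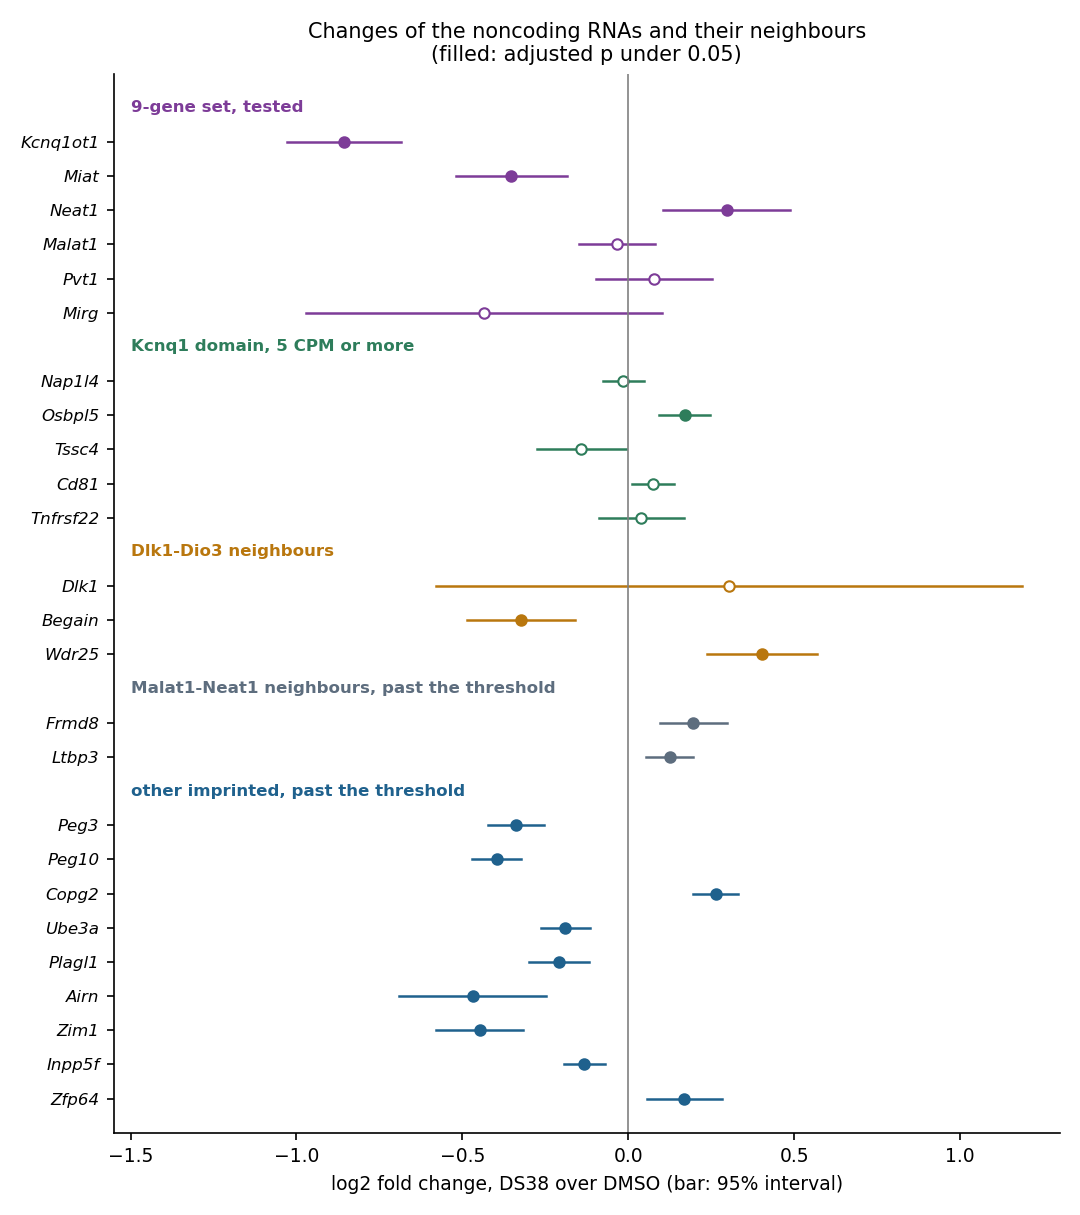
Log2 fold change, DS38 over DMSO (horizontal axis; points, with 95% intervals as bars), of the 6 tested noncoding RNAs, of neighbouring genes (in the Kcnq1 block those of 5 CPM or more, in the Malat1-Neat1 block those past the threshold) and of the other imprinted genes past the threshold; filled points have an edgeR adjusted p under 0.05. Kcnq1ot1 at -0.86 stands lowest, and Osbpl5, of its domain, is at 0.17.

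Miat was lower on average in DS38, with overlap between groups. It had 34.8, 46.2 and 36.7 CPM in DS38 replicates 1 to 3, against 42.7, 54.8 and 52.1 CPM in DMSO replicates 1 to 3. DS38 replicate 2 stood above DMSO replicate 1, and both groups spread widely: the means were 39.2 ± 6.09 CPM in DS38 and 49.9 ± 6.32 CPM in DMSO (SD, n = 3 each). The log2 fold change was -0.35 ± 0.081 (SE; edgeR adjusted p = 0.002617). Miat did not pass with DESeq2 (adjusted p = 0.1051) or with robust dispersion (edgeR adjusted p = 0.2162), the highest of its alternatives, the lowest being 1.298e-14 with no filter on low counts.

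Miat is known from neurons, and neuron markers moved in these libraries too. The 9 listed markers summed to 479 to 488 CPM in DS38 and 552 to 571 CPM in DMSO. Of 7 tested, 2 rose and 5 fell, which is 100% called, against 24.5% of all genes and 29.4% of protein-coding genes. Dcx, a microtubule protein of young neurons, fell by 0.26 ± 0.032 on the log2 scale (SE), and Snap25, a synaptic fusion protein, rose by 0.32 ± 0.058. The part of such cells in the change of Miat was not tested, and in bulk libraries fewer cells of a type and less RNA per cell cannot be told apart. The nearest level profile to that of Miat was that of Tspoap1, a gene of presynaptic scaffolds, at a root mean square difference of 0.0660 on the log2 scale, where the spread of Miat was 0.241. Ybx1-ps2, a pseudogene whose reads may come from its parent gene, differed by 0.103, and Il18bp, which did not pass, by 0.106.

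Neat1 was the only one of the 6 tested RNAs that rose. It had 14.3, 19 and 15.6 CPM in DS38 replicates 1 to 3, against 11.2, 14.4 and 14.1 CPM in DMSO replicates 1 to 3. DS38 replicate 1 lay just below DMSO replicate 2, so the groups overlapped, and DS38 replicate 2 was the highest of all. The log2 fold change was 0.30 ± 0.092 (SE; 95% interval 0.11 to 0.49; edgeR adjusted p = 0.02078). The call was lost without DS38 replicate 2 (log2 fold change 0.18, edgeR adjusted p = 0.1572), without DMSO replicate 1 (0.18, 0.1552) and with robust dispersion (0.1741), and its adjusted p ranged down to 4.211e-05 with no filter on low counts. The short and long isoforms of Neat1, of which the long one builds paraspeckles, are not separated in a count per gene.

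**Figure D4:**
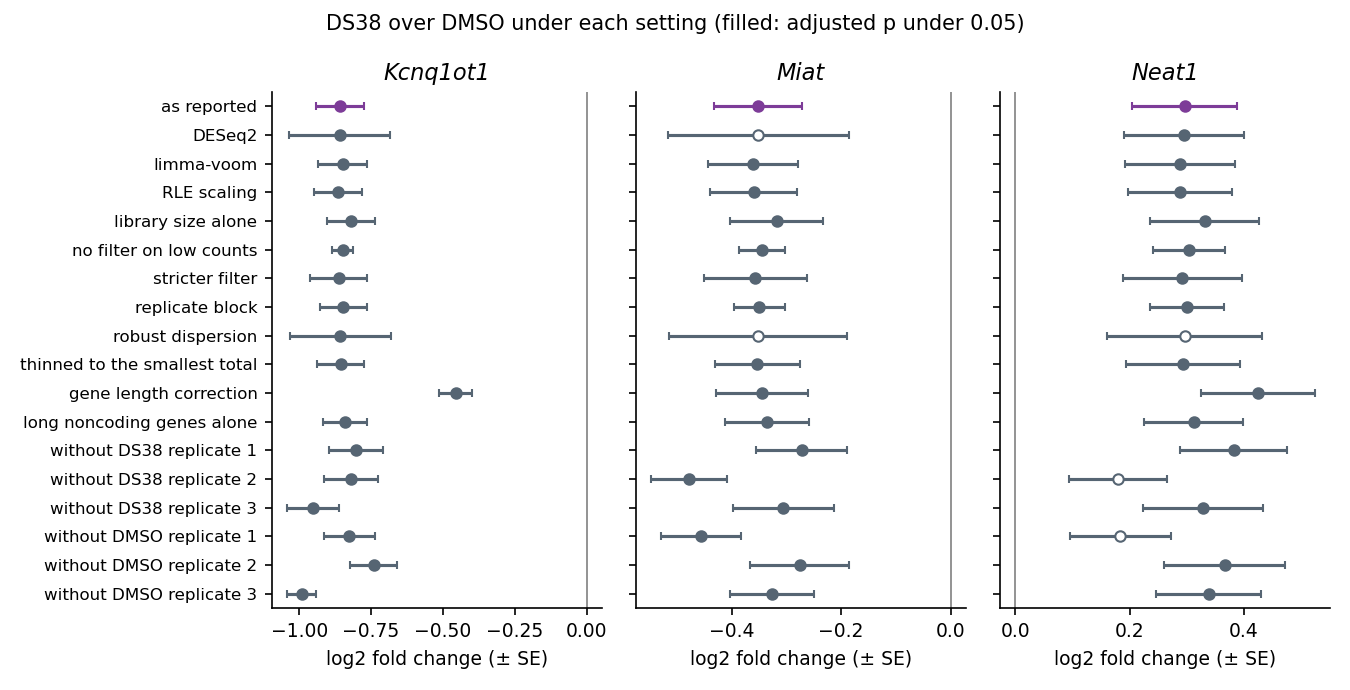
Log2 fold change, DS38 over DMSO (horizontal axes; points ± SE), of Kcnq1ot1, Miat and Neat1 under each setting, down the page; filled points have an adjusted p under 0.05. Kcnq1ot1 passes in every row and is at -0.46 with the gene length correction, against -0.86 as reported, while Miat fails in 2 rows and Neat1 in 3.

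Of 19 tested paraspeckle proteins, 1 rose and 9 fell. That is 52.6%, against 24.5% of all genes and 29.4% of protein-coding genes, and the median log2 fold change was -0.08. Sfpq, one of the core proteins that coat Neat1, fell by 0.14 ± 0.028 on the log2 scale (SE), while its partners Nono (-0.07 ± 0.027) and Pspc1 (0.07 ± 0.034) did not pass. Tardbp, an RNA-binding protein found in these bodies, fell by 0.21 ± 0.028. Zc3h6 rose by 0.65 ± 0.091, at 9.02 ± 0.227 CPM in DS38, against 5.69 ± 0.876 CPM in DMSO. The number that rose was 2 with library size alone.

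The genes whose level profiles lay nearest to that of Neat1 were Carmil3, Nrbp2 and Firre. Carmil3, a regulator of actin capping, differed by a root mean square of 0.0493 on the log2 scale, where the spread of Neat1 was 0.224. Firre is itself a nuclear long noncoding RNA, which helps to arrange chromosome contacts. It had 27.8, 37.0 and 32.4 CPM in DS38, against 23.7, 29.0 and 26.2 CPM in DMSO (log2 fold change 0.29 ± 0.077; edgeR adjusted p = 0.007019). Like Neat1 it was highest in DS38 replicate 2 and lowest in DMSO replicate 1, and its call was lost without either (edgeR adjusted p = 0.06282 and 0.0519). It was also lost with DESeq2 (adjusted p = 0.1157) and with robust dispersion (edgeR adjusted p = 0.2104).

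Malat1 was by far the most abundant of the set, 57th of all 17679 tested genes by level and 1st of the 1635 long noncoding ones. It had 966, 1013 and 1047 CPM in DS38 replicates 1 to 3, against 979, 1187 and 932 CPM in DMSO replicates 1 to 3. The DS38 libraries lay within the range of the DMSO libraries. The log2 fold change was -0.03 ± 0.055 (SE; edgeR adjusted p = 0.7023), and its 95% interval of -0.15 to 0.08 spans folds of 0.902 to 1.06. Without DMSO replicate 2 the value was 0.08, and without DMSO replicate 3 it was -0.11; neither passed. Each library held 36062 counts of it or more, so the spread between replicates, not depth, sets this interval. With library size alone the sign was positive, at 0.00054.

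Of 6 tested genes beside Malat1 and Neat1, 2 rose and 0 fell by edgeR. That is 33.3%, against 24.5% of all genes and 29.4% of protein-coding genes. At an unadjusted p under 0.05 the numbers were also 2 and 0, and DESeq2 and limma-voom called 0 lower. Frmd8, the nearest coding gene beyond Neat1, had 28.5, 28.9 and 27.7 CPM in DS38, against 24.2, 23.7 and 26.6 CPM in DMSO (log2 fold change 0.20 ± 0.049; edgeR adjusted p = 0.004882). Ltbp3, which encodes a binding protein of latent TGF-beta, rose by 0.12 ± 0.034 on the log2 scale (SE), a call lost without DS38 replicate 2 (edgeR adjusted p = 0.08392).

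Malat1 RNA resides among the proteins of nuclear speckles. Of 16 tested, 1 rose and 8 fell, with a median log2 fold change of -0.07. That is 56.2% called, against 24.5% of all genes and 29.4% of protein-coding genes. Pnn, a speckle protein, fell by 0.18 ± 0.031 on the log2 scale (SE), the scaffold gene Srrm2 by 0.15 ± 0.037 and the splicing factor gene Srsf3 by 0.11 ± 0.027, whereas the helicase gene Ddx39b rose by 0.13 ± 0.030. Falls numbered 4 when scaled by library size alone or when DS38 replicate 1 was left out, and 5 without DS38 replicate 2 or DMSO replicate 2, and the number that rose was 2 with library size alone and without DMSO replicate 3. Of 15 tested genes of Malat1 end processing and nuclear RNA turnover, 0 rose and 5 fell. That is 33.3%, against 24.5% of all genes and 29.4% of protein-coding genes. At an unadjusted p under 0.05, 1 was higher and 6 lower, and DESeq2 and limma-voom called 0 higher. Dhx9, a nuclear helicase, fell by 0.27 ± 0.028 and Zfc3h1, which directs nuclear RNA to the exosome, by 0.19 ± 0.036. Falls numbered 3 with scaling by library size, no filter, thinning or the replicate block, and without DS38 replicate 1, 2 or 3 or DMSO replicate 1; the number that rose was 1 with library size alone and without DMSO replicate 3.

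Pvt1 was at a low and similar level in both groups. It had 9.62, 8.55 and 9.78 CPM in DS38 replicates 1 to 3, against 7.72, 9.63 and 9.28 CPM in DMSO replicates 1 to 3. The groups overlapped over most of their range. The log2 fold change was 0.08 ± 0.084 (SE; 95% interval -0.10 to 0.25; edgeR adjusted p = 0.5487). Myc, the oncogene beside Pvt1, had 39.6, 40.1 and 40.3 CPM in DS38, against 41.1, 40.7 and 42.1 CPM in DMSO. Its DS38 libraries lay just below the DMSO ones, but the log2 fold change of -0.05 ± 0.037 did not pass (edgeR adjusted p = 0.3904).

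The 3 maternally expressed transcripts of the Dlk1-Dio3 region differed in whether they were counted. Meg3 had 0 counts throughout, a limit of 0.00831 CPM (3 counts of the summed total, counting error only). Rian had 3, 5 and 9 counts in DS38 and 3, 2 and 2 in DMSO, below the filter. Mirg had 53, 69 and 50 counts in DS38, against 40, 50 and 51 in DMSO. A gene can stand at 0 in such a table because it is silent or because its reads were not assigned to it, and these cannot be told apart here.

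Mirg was the only one of the 3 that could be tested. Its level was 0.664, 1.13 and 0.587 CPM in DS38 replicates 1 to 3, against 0.819, 1.04 and 1.32 CPM in DMSO replicates 1 to 3. The groups overlapped, since DS38 replicate 2 exceeded DMSO replicates 1 and 2. The log2 fold change was -0.43 ± 0.26 (SE; 95% interval -0.97 to 0.10; edgeR adjusted p = 0.2391), so folds of 0.511 to 1.07 cannot be told apart at this depth. Without DS38 replicate 2 the value was -0.74 (edgeR adjusted p = 0.05908, the lowest of its alternatives, the highest being 0.5812). The 55 microRNA genes between Meg3 and Mirg that have a row in the table all had 0 counts. The libraries were made with an mRNA kit, so this does not show whether those microRNAs were present.

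The coding genes of the region were also near the floor. Dlk1, a paternally expressed non-canonical ligand of NOTCH receptors, was at 0.389, 0.375 and 0.200 CPM in DS38, against 0.430, 0.146 and 0.181 CPM in DMSO, and did not pass. Rtl1, a retrotransposon-derived gene with maternal antisense transcripts, had 22 counts in all, and Dio3, a thyroid hormone deiodinase gene, had 0. Of the flanking genes, Begain fell by 0.32 ± 0.078 on the log2 scale (edgeR adjusted p = 0.004122) and Wdr25 rose by 0.40 ± 0.080 (edgeR adjusted p = 0.00078).

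Rmst had 1 count in all 6 libraries, in DS38 replicate 2. Nedd1, a centrosome gene that borders it, had a log2 fold change of 0.12 ± 0.033 (SE) and was called higher (edgeR adjusted p = 0.007411).

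Levels of different genes were compared per length, as normalized CPM per kb of the deposited gene length. The libraries were made with an mRNA kit, so differences in capture between these RNAs cannot be told apart from differences in level. In DS38 the order was Malat1 at 144 ± 5.85, Miat at 4.22 ± 0.656, Pvt1 at 1.33 ± 0.0958, Neat1 at 0.785 ± 0.116, Kcnq1ot1 at 0.608 ± 0.0664 and Mirg at 0.109 ± 0.0399 (SD, n = 3). In DMSO it was Malat1 at 148 ± 19.4, Miat at 5.37 ± 0.680, Pvt1 at 1.27 ± 0.146, Kcnq1ot1 at 1.10 ± 0.200, Neat1 at 0.638 ± 0.0856 and Mirg at 0.145 ± 0.0343 (SD, n = 3). In DMSO, Pvt1 (1.10 to 1.38) and Kcnq1ot1 (0.880 to 1.27) overlapped, so their order there is not set by these libraries. Neat1 and Kcnq1ot1 changed places between the groups, but in DS38 their ranges nearly met, at 0.690 for the lowest Neat1 library and 0.684 for the highest Kcnq1ot1 library. The place of Neat1 also rests on its deposited length of 20771 bases, while its short and long isoforms were not separated. All other neighbours in either order were separated in every library.

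**Figure D5:**
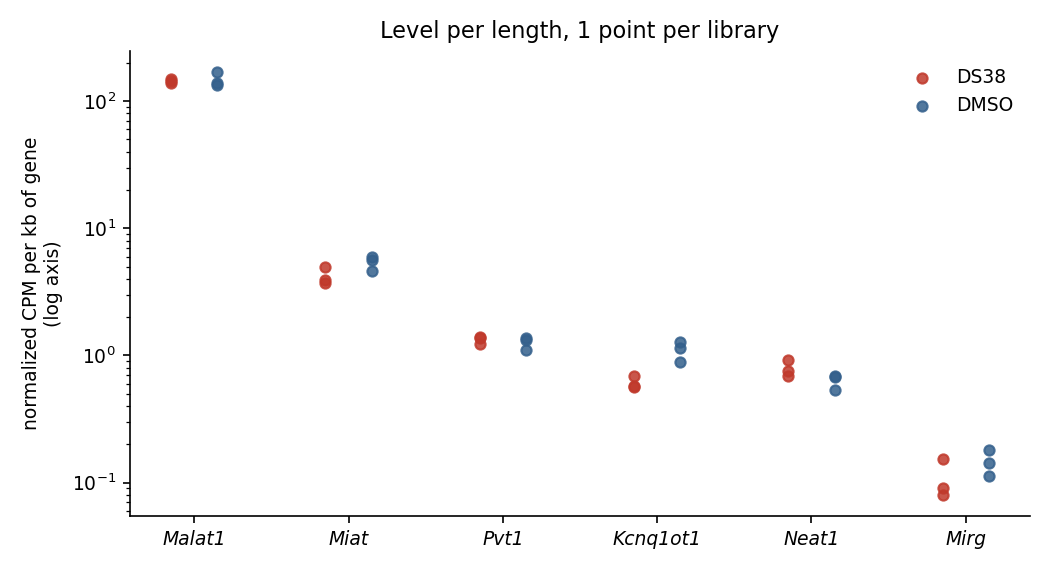
Normalized CPM per kb of gene (vertical log axis) of the 6 tested noncoding RNAs, 1 point per library, DS38 left and DMSO right for each gene. Malat1 lies at 134 or more in every library and Mirg at 0.181 or less, and Kcnq1ot1 lies above Neat1 in DMSO and below it in DS38.

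Beyond the 9, a list of other known long noncoding RNAs was examined. Of 22 tested, 2 rose and 1 fell, or 13.6%, against 24.5% of all genes and 10.1% of long noncoding genes. Trp53cor1, the p53-induced lincRNA-p21, was at 0.853, 0.799 and 0.798 CPM in DS38, against 0.389, 0.499 and 0.310 CPM in DMSO, a log2 rise of 1.01 ± 0.27 (SE; edgeR adjusted p = 0.007139). Its groups did not overlap, at 12 to 68 counts per library. Firre, described above, also rose, and Mir9-3hg, host of a neural microRNA, fell by 0.43 ± 0.057, with 13.7, 14.2 and 13.5 CPM in DS38 and 18.0, 19.6 and 18.0 CPM in DMSO. The abundant Tug1 and Gas5 had log2 fold changes of -0.04 ± 0.029 and 0.06 ± 0.037 and did not pass. The number that rose was 0 with DESeq2 and 1 with robust dispersion, the stricter filter, or without DS38 replicate 2 or DMSO replicate 1, and the number that fell was 2 after thinning or without DMSO replicate 3 and 5 without DMSO replicate 1.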

How the data were processed

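RNA sequencing libraries (mRNA kit, per the labels' protocols) of MB21 cells, 3 treated with DS38 and 3 with DMSO, were analysed. The authors deposited 1 table of raw read counts per Ensembl gene and a gene length in bases. Without giving roles, the submitters' processing notes name edgeR, R 4.1.0, Subread 2.0.3, featureCounts and STAR 2.7.9a, and the builds GRCh38.p13 and GRCm39. Not given in the sources used here are the strand setting and the treatment of multiply matching reads. The members and gene lists were chosen with earlier results of these data known, among them the fall of Kcnq1ot1.

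Of 55416 identifiers, 52083 had a symbol; 23047 were 0 throughout. The remainder without a symbol held 0.345% of counts. Tools were DESeq2 1.42.0, limma 3.58.1 and edgeR 4.0.16 in R 4.3.3, and matplotlib 3.10.9 in Python 3.11.15. filterByExpr (minimum count 10, total 15) left 17679 genes. Libraries were TMM-scaled, and DS38 was tested against DMSO by edgeR's quasi-likelihood method, two-sided, with no covariate, with Benjamini-Hochberg adjustment over all tested genes at 0.05. Levels are TMM-normalized CPM; SEs are the log2 fold change over the root of the F statistic. Level profiles were log2 CPM (prior count 2), compared with 9978 genes of at least 5 CPM. Every pair of replicates differed by more than sampling noise. Gene classes came from GENCODE M21 on GRCm38, and promoters and their coordinates from RefSeq on GRCm38.p6, an older build than GRCm39. Named genes were all members, up to 6 list genes past the threshold per direction, set neighbours, and the 3 nearest profiles per called member; further list genes, such as those that did not pass, were named after their values were seen. Some genes the rule names are not reported here. The DS38 against DMSO test was tested on simulated data of 17389 genes: calls were 31 of 50 at 1.2-fold, 35 of 50 at 1.5-fold, 44 of 50 at 2-fold and 44 of 45 at 3-fold, and 5 were false. Simulated scatter was set by gene level alone and was alike in both groups, whereas the real DMSO libraries differed more than the DS38 ones. These rates need not hold for genes that scatter more than others of their level. Alternatives were DESeq2, limma-voom, RLE, library size alone, no filter or a stricter filter (5 CPM in 3 libraries), a replicate block, robust dispersion, thinning to the smallest total, a length correction and leaving out each library; long noncoding genes alone was added after seeing the data.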

Additional observations from a re-analysis of the deposited data

How the results depend on the processing

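Over 17 alternatives, Kcnq1ot1 was lower and past the threshold in all, with log2 fold changes of -0.99 to -0.46. Malat1 and Pvt1 passed in none of 17 and Mirg in none of 16; with the stricter filter Mirg was not tested. With robust dispersion 0 members rose and 1 fell, and with DESeq2 1 fell; leaving out each library in turn gave 0 to 1 that rose and 2 to 2 that fell. Leaving out each library gave 1640 to 2437 genes higher and 1549 to 2474 lower in DS38, against 2272 and 2068 as reported. With library size alone 3289 were higher and 1543 lower. With long noncoding genes alone, which tests fewer genes, 45 were higher and 65 lower. Deviations of same-numbered libraries from their group means correlated at 0.0349, -0.0108 and -0.0266 across genes. Such values over all genes cannot exclude that the replicate numbers pair the libraries for some genes. With the replicate block 2108 genes were higher and 1902 lower, and the members' calls were 1 higher and 2 lower. The block lowered the SE of Miat from 0.081 to 0.047 and that of Neat1 from 0.092 to 0.064. For Kcnq1ot1 the SE was 0.083 without the block and 0.082 with it. Counts of Meg3, Rian and Rmst were at or near 0, and Mirg had 313 counts in all, so their values are the least precise.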

Other observations

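Among 14 tested genes that set or keep imprints, 2 rose and 4 fell in DS38. That is 42.9%, against 24.5% of all genes and 29.4% of protein-coding genes. Dnmt1, the maintenance DNA methyltransferase, was at 529 ± 7.50 CPM in DS38 and 595 ± 15.5 CPM in DMSO (SD, n = 3 each). On the log2 scale that is -0.17 ± 0.028 (SE), with an edgeR adjusted p of 0.0001404. Its cofactor gene Uhrf1 fell by 0.15 ± 0.028, and Ezh2 and Eed, subunits of Polycomb repressive complex PRC2, by 0.10 ± 0.027 and 0.12 ± 0.033. Zfp57, a zinc finger protein that guards imprints, and the methyltransferase gene Dnmt3b rose by 0.15 ± 0.045 and 0.22 ± 0.070. Falls numbered 2 when scaled by library size alone or when DS38 replicate 2 was left out. The number that rose was 1 with DESeq2 or the length correction and without DS38 replicate 2, DMSO replicate 1 or DMSO replicate 3. Under the length correction, and in the fit without DS38 replicate 2, the gene that rose was neither Zfp57 nor Dnmt3b. The number was 0 without DS38 replicate 3 or DMSO replicate 2.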
